A study of Mus musculus with 8 samples.

Results

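The nuclear genes of the mitochondrial respiratory chain and ATP synthase were examined for 5-hydroxymethylcytosine (5hmC) in mouse cells. They were chosen by symbol among the protein-coding genes of the nuclear chromosomes in the GENCODE annotation of NCBIM37, the assembly also known as mm9: symbols that begin with Ndufa, Ndufb, Ndufc, Ndufs, Ndufv, Uqcr, Cox4 to Cox8 or Atp5, and Sdha to Sdhd. The rule itself uses no measured value, although it was written with earlier results of these data known. It gave 92 gene records with 91 symbols, of 22367 protein-coding records in all. By complex, 38 were subunits of complex I, 4 of complex II, 8 of complex III, 17 of complex IV and 15 of ATP synthase, with Ndufa4, now known as a subunit of complex IV, and its paralog Ndufa4l2 counted by symbol under complex I. The other 10 records were assembly factors and factors of unclear membership (Ndufaf1 to Ndufaf4, Cox7a2l, Atp5s and Atp5sl) together with 3 records whose place in the group was doubtful. Cox4nb encodes a protein of the endoplasmic reticulum named after its neighbour Cox4i1, Atp5l-ps1 carries the name of a pseudogene, and a second record named Ndufb8 overlaps Sec31b and the first Ndufb8 record. The annotated span of Atp5o, at 247290 bp, took in Itsn1, Donson and Cryzl1, so its values mix several genes.

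The 5hmC maps came from GLIB-Seq, in which 5hmC is glucosylated, the sugar is opened and biotinylated, and the fragments pulled down are sequenced. There was 1 library each of embryonic stem cells (ESCs) of the E14 line, mouse embryonic fibroblasts (MEFs) of C57BL/6 embryos at embryonic day 11 by the labels (the methods give a later day), and brain and liver of C57BL/6 mice of 8 weeks. A further pair of libraries came from puromycin-selected ESCs that carried hairpin constructs, one against GFP (shGFP) and the other against Suz12 (shSuz12), a core subunit of the Polycomb repressive complex PRC2. The study asked where 5hmC lies in pluripotent and differentiated cells and, in ESCs, how it relates to PRC2. Since no condition had a second library, there is no replicate spread to set differences against, no difference between libraries was tested, and the exact (Clopper-Pearson) 95% intervals below cover counting error only.

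The deposited files list peaks with a MACS score and no read counts, so how deeply each library was sequenced is unknown. The number of nuclear peaks per list ran from 130408 to 217025, and these covered between 83.5 Mb (shSuz12) and 208 Mb (MEF). Scores began at 80 in the ESC and liver lists, at 50.02 in shGFP and at about 30 in MEFs, brain and shSuz12, so the lists did not reach down to the same score. Peak lists hold no expression values, so the sample labels could only be set against peaks over marker genes. Of 6 fibroblast markers (Col1a1, Col1a2, Col3a1, Fbn1, Prrx1 and Thy1), all 6 had a peak over the gene in MEFs, with a median of 31.3% of the gene under peaks, and 5 had one in each ESC library, 4 in brain and 1 in liver, with medians of at most 9.01%. Thy1 went against this order, with 11.5% in MEFs and 47.4% in ESCs. The other lists did not set their own library apart, by the number of genes with a peak or by the median share covered. Of 7 liver markers, 3 had a peak over the gene in liver and in ESCs, 4 in shGFP, 5 in MEFs and in brain and 6 in shSuz12. Apob, Cps1 and Hnf4a were covered most in liver (42.2, 24.9 and 55.7%), while Alb, Apoa1, Serpina1a and Ttr had no peak over the gene there. The median of this list was 0% in liver and 5.90% in brain. All 7 brain markers with an annotated gene had one in brain and also in the 3 ESC libraries, 6 had one in MEFs and 3 in liver. Of 5 ESC markers 3 had one in ESCs, MEFs, shGFP and shSuz12, 4 in brain and 2 in liver.

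The respiratory chain passes electrons from NADH through complex I, or from succinate through complex II, to complex III and complex IV, which reduces oxygen, and ATP synthase uses the resulting proton gradient to make ATP. Most subunits are encoded in the nucleus and made in nearly every cell, at high levels in tissues such as brain, heart and liver, while a core set is encoded by the mitochondrial genome. Several small subunits of complex IV have a broadly expressed form and a form restricted to muscle and heart, to testis, or to lung and low oxygen. 5hmC is made from 5-methylcytosine by the Tet enzymes and is known to lie in gene bodies and near promoters of intermediate or low CpG content, while CpG-rich promoters of housekeeping genes are mostly free of methylation.

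The promoters of these genes were CpG-rich more often than those of all genes. In the region from 700 bp upstream to 200 bp downstream of the transcription start site (TSS), 55 of 92 (59.8%) were of the high-CpG class, with a 500 bp stretch of over 55% GC and an observed-to-expected CpG ratio over 0.75, against 34.2% of all protein-coding genes. Another 27 were of the intermediate class and 10 (10.9%) of the low class, in which the ratio stayed under 0.48, against 40.9% of all genes. The 300 bp from 250 bp upstream to 50 bp downstream of the TSS held a median of 17 CpGs, against 11 over all genes. The 8 tissue-restricted forms were poorer, with a median of 8 CpGs and a range from 2 to 16, and their 7 broadly expressed paralogs had a median of 19 and a range from 5 to 46.

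The 3 tissue-restricted genes with the most bp under peaks around the TSS are shown here with their broadly expressed paralogs, since the contrast in CpG content between the members of each pair is visible in the letters. Each sequence is the 300 bp of mm9 from 250 bp upstream to 50 bp downstream of the TSS, read 5′ to 3′ on the strand of the gene, with every CpG in capitals. Each covers the proximal promoter and the start of the gene. For Cox8b, which encodes the muscle and heart form of subunit VIII, this is chr7:148086296-148086595 (minus strand), and for Cox8a, the broadly expressed form, chr19:7292057-7292356 (minus strand). For Cox6a2, the muscle and heart form of subunit VIa, it is chr7:135349831-135350130 (minus strand), and for Cox6a1 chr5:115798941-115799240 (minus strand). For Cox4i2, the form of subunit IV known from lung and low oxygen, it is chr2:152579659-152579958 (plus strand), and for Cox4i1 chr8:123191940-123192239 (plus strand).
Cox8b: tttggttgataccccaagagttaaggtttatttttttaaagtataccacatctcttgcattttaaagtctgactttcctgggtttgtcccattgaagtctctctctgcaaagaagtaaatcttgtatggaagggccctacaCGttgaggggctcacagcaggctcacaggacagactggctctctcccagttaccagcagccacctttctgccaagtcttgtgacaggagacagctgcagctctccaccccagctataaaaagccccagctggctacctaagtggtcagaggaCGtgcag
Cox8a: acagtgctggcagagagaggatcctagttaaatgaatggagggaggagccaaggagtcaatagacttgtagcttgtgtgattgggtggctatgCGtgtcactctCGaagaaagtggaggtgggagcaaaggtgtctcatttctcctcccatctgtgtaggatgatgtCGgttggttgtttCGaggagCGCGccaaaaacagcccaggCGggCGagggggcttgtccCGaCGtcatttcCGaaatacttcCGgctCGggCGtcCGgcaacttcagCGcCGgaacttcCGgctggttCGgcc
Cox6a2: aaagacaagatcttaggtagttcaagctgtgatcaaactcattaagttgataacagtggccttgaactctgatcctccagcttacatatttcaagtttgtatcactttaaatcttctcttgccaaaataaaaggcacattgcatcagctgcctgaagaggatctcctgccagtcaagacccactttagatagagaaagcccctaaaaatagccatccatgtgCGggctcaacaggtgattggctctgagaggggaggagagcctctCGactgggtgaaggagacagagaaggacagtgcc
Cox6a1: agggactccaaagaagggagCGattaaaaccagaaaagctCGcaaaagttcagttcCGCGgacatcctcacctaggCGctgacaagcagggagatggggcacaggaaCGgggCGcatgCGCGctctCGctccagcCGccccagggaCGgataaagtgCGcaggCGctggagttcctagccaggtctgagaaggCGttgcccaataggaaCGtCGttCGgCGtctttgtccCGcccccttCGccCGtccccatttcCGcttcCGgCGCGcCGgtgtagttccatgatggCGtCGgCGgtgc
Cox4i2: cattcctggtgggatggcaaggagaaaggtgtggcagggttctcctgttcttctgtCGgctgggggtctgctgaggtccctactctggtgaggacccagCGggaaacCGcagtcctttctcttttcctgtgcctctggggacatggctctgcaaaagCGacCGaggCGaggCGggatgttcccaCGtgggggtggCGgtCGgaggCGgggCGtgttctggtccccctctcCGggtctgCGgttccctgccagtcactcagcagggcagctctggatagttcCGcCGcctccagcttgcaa
Cox4i1: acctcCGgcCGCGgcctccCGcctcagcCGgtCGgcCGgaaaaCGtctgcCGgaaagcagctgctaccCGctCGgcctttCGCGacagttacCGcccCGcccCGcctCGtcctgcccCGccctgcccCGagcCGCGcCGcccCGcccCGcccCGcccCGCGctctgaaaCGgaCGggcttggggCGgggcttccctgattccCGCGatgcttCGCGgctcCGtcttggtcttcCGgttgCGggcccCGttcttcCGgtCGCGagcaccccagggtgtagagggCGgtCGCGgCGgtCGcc

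The sequences of Cox8b and Cox6a2 held 2 CpGs each, and those of Cox8a and Cox6a1 held 19 and 30. Cox4i2 had 16 CpGs and Cox4i1 had 46, the most of all 92 records. In the low-class promoters of Cox8b and Cox6a2 the peaks described next lay over or beside these letters in 5 of 6 libraries, while none reached the 2 kb window of Cox6a1 or Cox4i1 in any library. The window of Cox8a had 427 bp under a peak in liver and none in the other libraries.

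Around the TSS (the window from 1 kb upstream to 1 kb downstream, with any base of a peak counted), liver had the most respiratory chain genes with a peak. In liver 50 of 92 had one (54.3%, 95% interval 43.6 to 64.8%), against 29.4% of all protein-coding genes. In MEFs 25 had one (27.2%, 18.4 to 37.4%), against 30.1% of all genes, and in brain 20 (21.7%, 13.8 to 31.6%), against 20.0%. In ESCs 13 had one (14.1%, 7.74 to 23.0%), against 31.9% of all genes. In shGFP 10 (10.9%, 5.34 to 19.1%) had one, against 27.1%, and in shSuz12 also 10, against 21.4%. The members were thus below the background in the 3 ESC libraries and above it in liver, while the intervals of MEFs and brain took it in. Among the 55 members with a high-CpG promoter the shares were 9.09% in ESCs, 32.7% in MEFs, 20.0% in brain, 50.9% in liver and 5.45% in both shGFP and shSuz12, where 27.1, 34.6, 19.7, 40.5, 22.3 and 17.0% of all high-CpG genes had a peak. In liver the interval of these members (37.1 to 64.6%) took in the share of their class, and in ESCs, shGFP and shSuz12 it lay below that share. The 37 other members had 59.5% in liver (42.1 to 75.2%), against 23.6% of all genes not of the high-CpG class. In the other libraries the interval of the 37 took in the share of such genes.

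**Figure D1:**
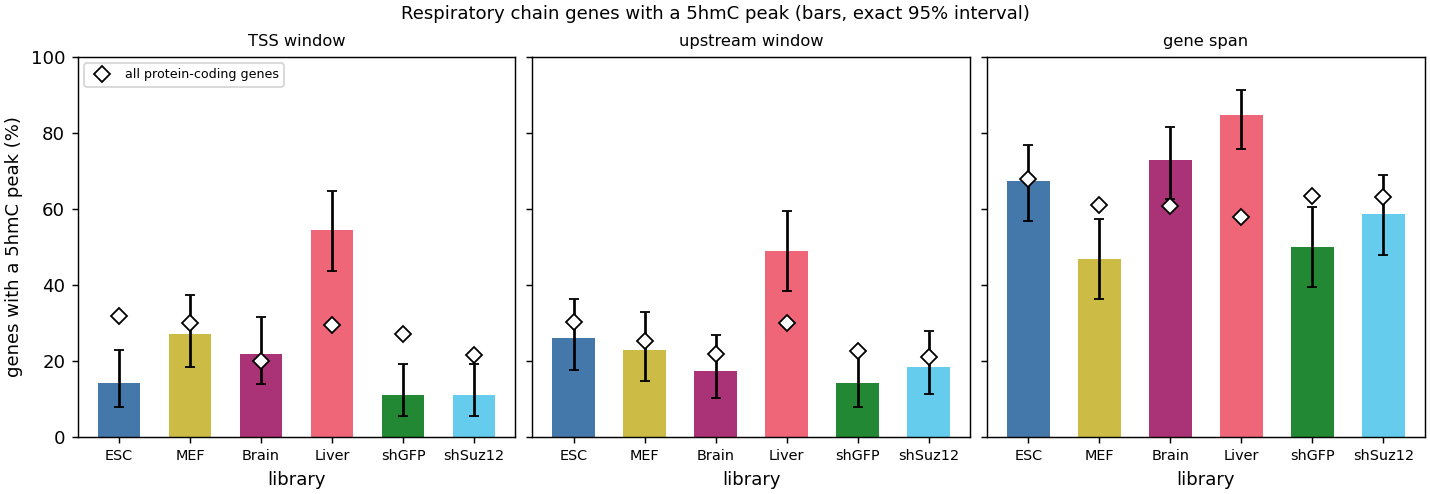
Percentage of the 92 respiratory chain records with a 5hmC peak (bars, with exact 95% intervals for counting error) and of all 22367 protein-coding genes (diamonds) in each library, over the window from 1 kb upstream to 1 kb downstream of the TSS, the window from 1 to 3 kb upstream, and the gene span. Liver bars stand above the diamond in all 3 windows, and the ESC, shGFP and shSuz12 bars stand below it in the TSS window, where they reach 14.1, 10.9 and 10.9%.

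In the window from 1 to 3 kb upstream, 24 members had a peak in ESCs (26.1%, 17.5 to 36.3%), 21 in MEFs (22.8%, 14.7 to 32.8%), 16 in brain (17.4%, 10.3 to 26.7%), 45 in liver (48.9%, 38.3 to 59.6%), 13 in shGFP (14.1%, 7.74 to 23.0%) and 17 in shSuz12 (18.5%, 11.1 to 27.9%). Over all genes the shares were 30.3, 25.3, 21.7, 30.1, 22.7 and 20.9% in the same order, so liver was again the library in which the members' interval lay above the background. The high-CpG members had 27.3, 25.5, 21.8, 52.7, 12.7 and 16.4%, and all high-CpG genes 38.6, 33.3, 27.6, 44.7, 28.2 and 26.7%. In liver the interval of these members (38.8 to 66.3%) took in the share of their class. The 37 other members had 43.2% there (27.1 to 60.5%), against 22.4% of all genes not of the high-CpG class. Neighbouring genes share such windows: 30 members had the TSS of a divergently transcribed gene within 1 kb, and 50 overlapped another protein-coding gene with their span or the 3 kb upstream of it, so a peak there cannot be assigned to 1 gene. Over the gene span, 62 members had a peak in ESCs (67.4%, 56.8 to 76.8%), 43 in MEFs (46.7%, 36.3 to 57.4%), 67 in brain (72.8%, 62.6 to 81.6%), 78 in liver (84.8%, 75.8 to 91.4%), 46 in shGFP (50%, 39.4 to 60.6%) and 54 in shSuz12 (58.7%, 47.9 to 68.9%). Over all genes the shares were 67.8, 61.0, 60.7, 57.9, 63.4 and 63.0%, so the members' interval lay above the background in brain and liver and below it in MEFs and shGFP. With only peaks of a score of at least 80 in every list, brain turned to the other side, with 25.0% of the members and 32.9% of all genes, and liver stayed at 84.8 against 57.9%. With the full lists, the high-CpG members had 69.1, 50.9, 69.1, 89.1, 47.3 and 56.4%, from ESCs to shSuz12 in the order above. All high-CpG genes had 85.5, 78.8, 82.4, 82.8, 80.04 and 81.2%. Against their class, the interval of these members thus lay below in brain (55.2 to 80.9%), ESCs, MEFs, shGFP and shSuz12. In liver it took in the share of the class (77.8 to 95.9%). The 37 members not of the high-CpG class had 78.4% (61.8 to 90.2%) in both brain and liver. Of all genes not of that class, 49.3% in brain and 45.0% in liver had a peak, below those intervals. In the other libraries the interval of the 37 took in the share of such genes. The members are short, with a median span of 7438 bp against 15427 bp over all genes, and a short span has less room for a peak.

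By complex, no subunit of complex II, complex III or ATP synthase had a peak in the TSS window in ESCs or shGFP. In liver 10 of the 15 ATP synthase records, 22 of 38 complex I subunits, 2 of 4 complex II subunits, 2 of 8 complex III subunits and 8 of 17 complex IV subunits had one. In ESCs the members with such a peak were 6 complex IV subunits, 4 complex I subunits and 3 of the 10 other records. In MEFs they were 12 complex I subunits, 4 complex IV subunits, 4 ATP synthase subunits, 2 complex II subunits, 1 complex III subunit and 2 other records. Over the gene span, all 15 ATP synthase genes and all 4 complex II genes had a peak in liver, and 33 of 38 complex I genes, 7 of 8 complex III genes and 11 of 17 complex IV genes did. MEFs had peaks over 10 of 15 ATP synthase genes, 3 of 4 complex II genes, 19 of 38 complex I genes, 1 of 8 complex III genes and 5 of 17 complex IV genes. Over all genes, 57.9% had a span peak in liver and 61.0% in MEFs. A TSS window peak was found in 31.9% of all genes in ESCs, 30.1% in MEFs, 29.4% in liver and 27.1% in shGFP.

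As a share of the gene span under peaks, which takes length into account, the members also stood highest in liver. The median over the 92 records was 34.4% in liver, 14.9% in ESCs, 12.9% in brain, 4.26% in shSuz12, 1.16% in shGFP and 0% in MEFs. Over all protein-coding genes the medians were 4.44, 8.77, 6.43, 3.05, 4.17 and 4.43%, in the same order of libraries. The mean was 36.0% of the span in liver, 2.08 times the mean of all genes, and 7.10% in MEFs, 0.661 times the mean of all genes. MEFs had the longest peak list and the largest covered length of the 6 libraries, and liver had the shortest list. With a common score of at least 80 the members' median was 0% in brain, MEFs, shGFP and shSuz12, and stayed at 14.9% in ESCs and 34.4% in liver. Over all genes the median was then 0% in brain, MEFs and shSuz12 and 0.978% in shGFP. It stayed at 8.77% in ESCs and 4.44% in liver, whose lists begin at that score. No peak lay over the span in 14 members in liver, 25 in brain, 30 in ESCs, 38 in shSuz12, 46 in shGFP and 49 in MEFs. Of the 84 members with a peak over the span in at least 1 of the 4 cell types, liver had the largest covered share in 63 (75.0%). Brain had it in 10 (11.9%), ESCs in 7 (8.33%) and MEFs in 4 (4.76%). Over all genes with such a peak, liver had it in 37.4%, brain in 16.6%, ESCs in 30.9% and MEFs in 14.6%. Gene by gene, liver covered more of the span than brain in 67 members and less in 16, more than ESCs in 69 and less in 11, and more than MEFs in 74 and less in 7. Over all genes liver was higher than brain in 38.7% and lower in 29.8%, higher than ESCs in 36.1% and lower in 37.1%, and higher than MEFs in 43.2% and lower in 27.6%. Brain was higher than ESCs in 37 members (40.2%) and lower in 38 (41.3%), and over all genes in 31.2 and 40.8%.

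**Figure D2:**
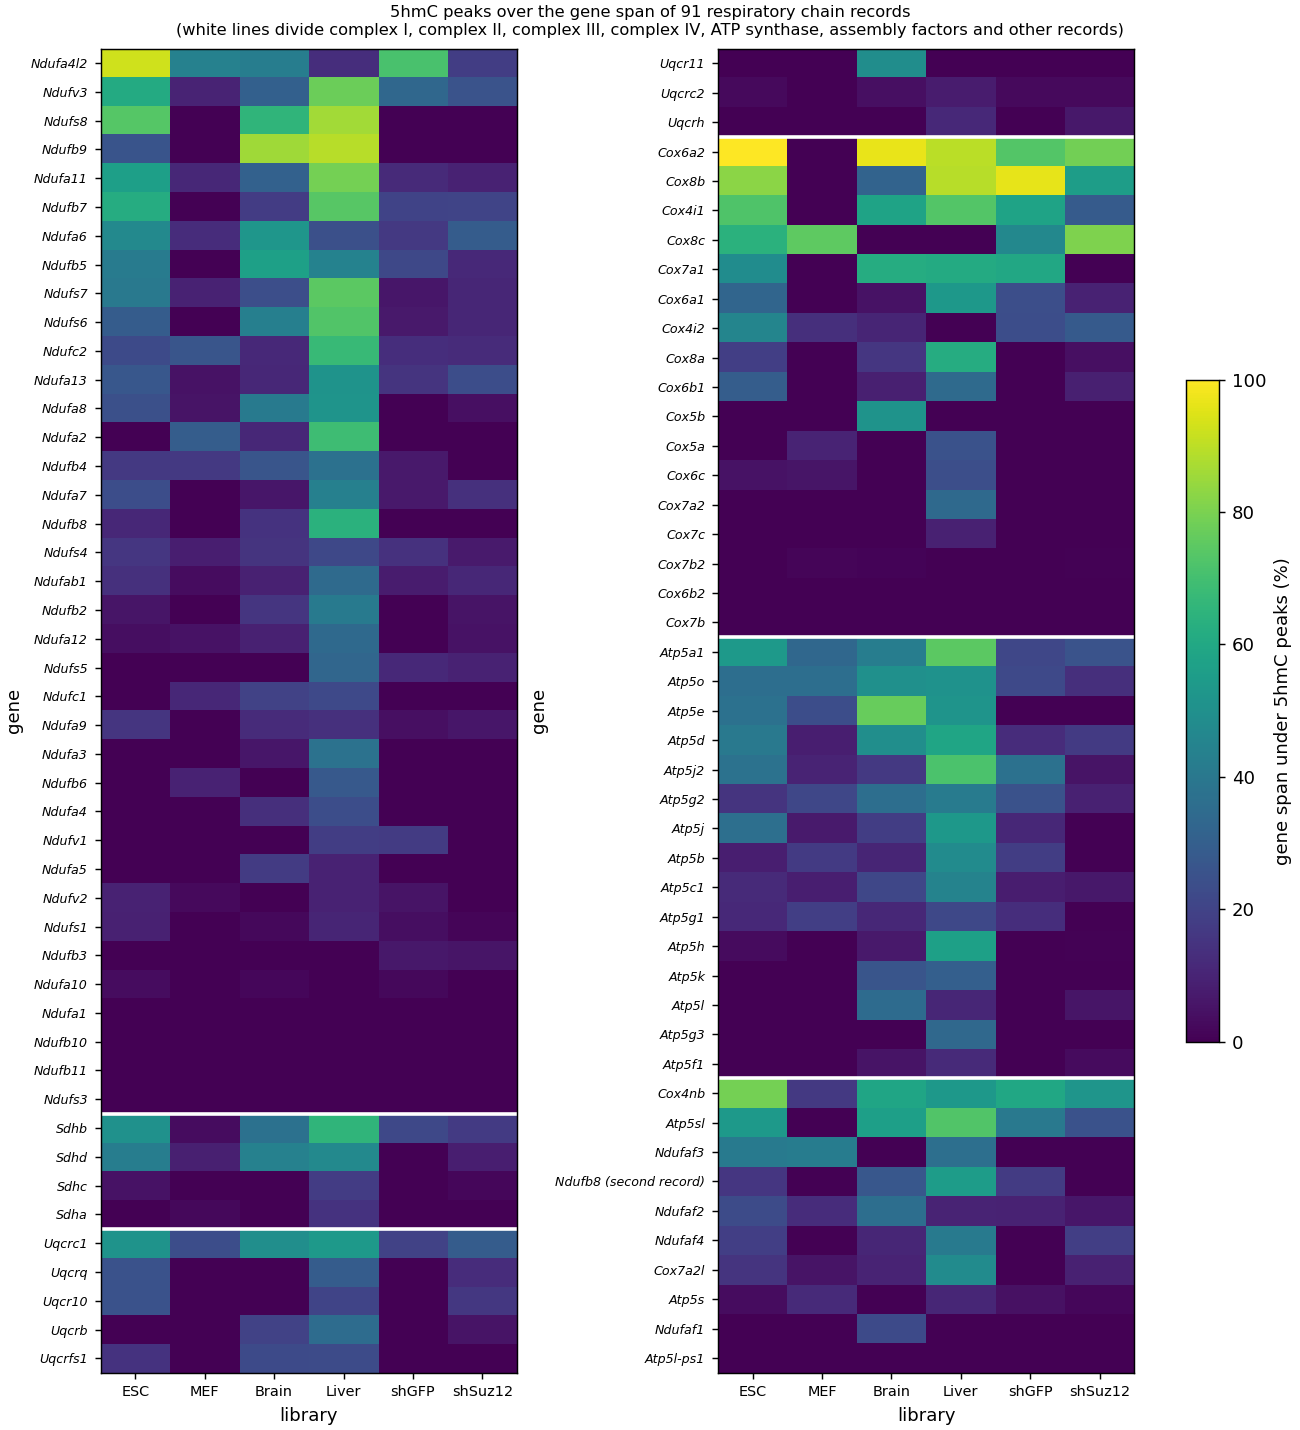
Percentage of the gene span under 5hmC peaks, from 0 (dark) to 100 (yellow), for 91 of the 92 records (rows, grouped by complex and ordered by the mean over libraries) in the 6 libraries (columns). The liver column is the brightest in most rows, the MEF column is dark in 49 rows, and Cox6a2 is bright in every library but MEFs.

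The genes with the largest mean share of the span under peaks over the 6 libraries were Cox6a2 (73.0%), Cox8b (59.4%), Cox4nb (53.3%), Cox4i1 (48.3%) and Ndufa4l2 (47.0%). The span of Cox6a2, 931 bp long and overlapped at its 3' end by the 3' end of Itgad, was under peaks over 100% in ESCs, 96.8% in brain, 89.6% in liver, 73.1% in shGFP and 78.5% in shSuz12, and over 0% in MEFs. Cox8b was covered over 82.7% in ESCs, 0% in MEFs, 32.0% in brain, 89.4% in liver, 96.5% in shGFP and 55.5% in shSuz12. Both Cox6a2 and Cox8b thus lacked a span peak in MEFs alone, while Cox7a1, also a muscle and heart form, lacked one in MEFs and shSuz12. Cox4i1, whose TSS window had no peak in any library, had 72.3% of its span under peaks in ESCs, 0% in MEFs, 57.8% in brain, 73.3% in liver, 58.0% in shGFP and 28.6% in shSuz12. Its divergent neighbour Cox4nb had 79.3, 16.4, 58.7, 53.3, 59.7 and 52.1%, in the same order. Ndufa4l2, a paralog of the complex IV subunit Ndufa4 that is induced by low oxygen, had 92.9% in ESCs, 44.0% in MEFs, 42.2% in brain, 13.1% in liver, 71.4% in shGFP and 18.3% in shSuz12. Its ESC peaks ran on beyond the gene towards Shmt2, and one of them was 6326 bp wide.

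At the other end, 7 members (7.61%) had no peak over the span in any library, against 21.4% of all genes and 4.43% of all high-CpG genes. They were Atp5l-ps1, Cox6b2, Cox7b, Ndufa1, Ndufb10, Ndufb11 and Ndufs3. Cox6b2, the testis form of subunit VIb, had peaks upstream in ESCs, shGFP and shSuz12, and Ndufs3, a core subunit of complex I, had TSS window peaks of 214 bp in ESCs and 513 bp in liver. The other 5 (5.43%, against 18.7% of all genes) had no peak in any of the 3 windows in any library. Of these, Cox7b (a subunit of complex IV) and Ndufa1 and Ndufb11 (accessory subunits of complex I) are the 3 members on the X chromosome. Over all genes of the X chromosome, 571 of 932 (61.3%) had no peak in any window in any library, against 16.8% on the autosomes, and in brain 0.966% of X-linked genes had a peak over the span. The lack of peaks at the X-linked members therefore goes with a lack over most of that chromosome. At the opposite extreme, 28 members (30.4%) had a peak in at least 1 window in every library, against 42.7% of all genes and 62.9% of all high-CpG genes. Among them were the ATP synthase subunits Atp5a1 and Atp5h, the iron-sulphur subunit Sdhb of complex II, the core subunit Uqcrc1 of complex III and the complex I subunits Ndufs4 and Ndufv3.

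Brain and liver differed most, in favour of brain, at Cox5b, where 51.2% of the span was under peaks in brain and 0% in liver. Uqcr11, a small subunit of complex III, had 49.0% in brain and 0% in liver. Ndufa4l2 was covered over 29.1 percentage points more in brain than in liver, Ndufa6, an accessory subunit of complex I, over 28.5 points more (52.7 against 24.2%), and the assembly factor Ndufaf2 over 26.2 points more (36.2 against 9.99%). The members with the largest difference in favour of liver were Ndufa2 (69.1% in liver and 11.2% in brain), Cox8b, Ndufb7 (74.2 and 17.6%), Ndufc2 (67.4 and 11.5%) and Atp5j2 (71.5 and 16.5%). Ndufa2, Ndufb7 and Ndufc2 are accessory subunits of complex I, and Atp5j2 encodes subunit f of ATP synthase. In ESCs these members had 0% (Ndufa2), 61.8% (Ndufb7), 22.6% (Ndufc2) and 37.5% (Atp5j2) of the span under peaks.

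Along the gene, coverage of the members was low in the first decile and higher from the third decile on. In liver the mean share of a decile of the gene under peaks was 12.1% in the first, 33.3% in the third and 47.1% in the eighth, where it was highest, against 11.8, 16.7 and 18.4% over all genes. In brain it went from 5.18% in the first decile to 26.2% in the eighth, and in ESCs from 6.90% to 31.5% in the ninth. In MEFs it was highest in the second decile, at 11.8%, and between 4.53 and 10.7% in the others. Within the members, exons were covered more densely than introns in ESCs (26.1 against 19.6% of bp, a ratio of 1.33) and in liver (36.8 against 30.2%, a ratio of 1.22). The ratio was 0.890 in brain, 0.605 in MEFs, 1.38 in shGFP and 1.39 in shSuz12. Over all genes it was higher in each library, from 1.18 in MEFs to 2.66 in shGFP. The very long Atp5o record holds many of these intron bases. Its span, exons included, had 89542 covered bp in MEFs and 124541 bp in brain. All members together had 144729 and 280740 covered intron bp there. The pooled ratios below 1 thus depend heavily on a record that mixes several genes, and ratios without it were not computed.

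Read base by base, few members had a peak at the TSS, and the liver profile rose steeply downstream of it. The TSS base itself lay under a peak in 6 members in ESCs (6.52%), 3 in MEFs (3.26%), 3 in brain (3.26%), 7 in liver (7.61%), 5 in shGFP (5.43%) and 4 in shSuz12 (4.35%). Over all genes the percentages were 11.8, 6.87, 4.46, 5.38, 11.2 and 5.83. Among all high-CpG genes they were 1.74, 1.11, 0.588, 1.502, 3.06 and 1.097, below those of the members in every library. The members are of mixed promoter class, and most of those with the TSS base under a peak, listed below, had a low- or intermediate-class promoter. Between 1 and 3 kb downstream, the mean share of members under a peak was 40.5% in liver, 22.5% in brain, 18.6% in ESCs, 10.8% in MEFs, 6.73% in shGFP and 7.13% in shSuz12. At the same distance and in the same order, all protein-coding genes had 18.5, 12.7, 16.4, 13.5, 10.8 and 6.93%. All high-CpG genes had 29.2, 16.8, 18.9, 18.9, 11.7 and 7.97%. The liver and brain values of the members were above both and the MEF and shGFP values below both. The members' profile was not split by promoter class, so this is no comparison within a class. The highest point was 52.2% of members, in liver at 3750 bp downstream, and the highest points of the other libraries lay between 16.3 and 29.3%. Upstream, the mean between 1 and 3 kb was 19.9% in liver and between 3.95% (shGFP) and 8.96% (ESCs) elsewhere. All high-CpG genes had 20.8% in liver and between 6.97% (shSuz12) and 15.6% (ESCs) elsewhere.

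**Figure D3:**
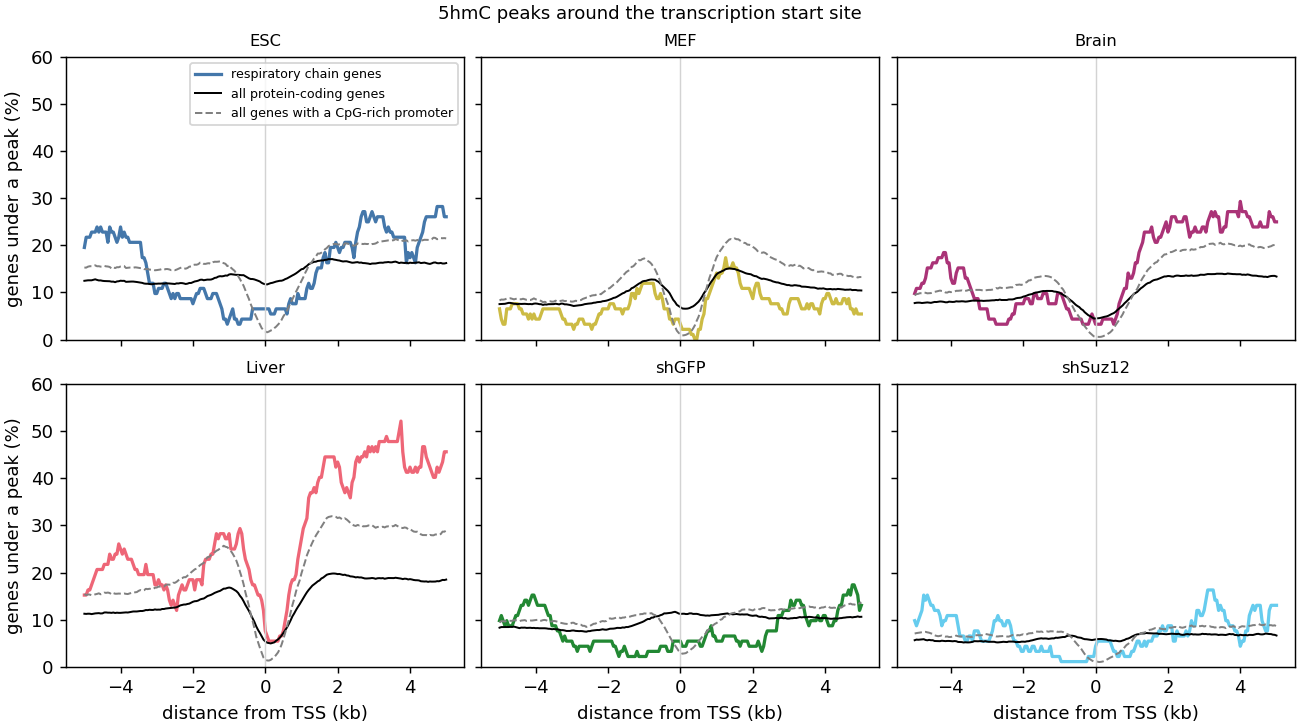
Percentage of genes whose DNA lay under a 5hmC peak at each position from 5 kb upstream to 5 kb downstream of the TSS (read every 50 bp), for the 92 respiratory chain records (coloured), all protein-coding genes (black) and all genes with a high-CpG promoter (dashed grey), in each library. In liver the members rise from 7.61% at the TSS to 52.2% at 3750 bp downstream.

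Across the libraries 12 records had the TSS base under a peak at least once: Atp5j2, Cox4i2, Cox6a2, Cox7b2, Cox8b, Cox8c, Ndufa13, Ndufa4l2, Ndufa5, Ndufb2, Ndufc2 and the second Ndufb8 record. The 8 with the most bp under peaks in the TSS window, summed over libraries, were Cox8b, Cox6a2, Cox4i2, Ndufa4l2, Cox5b, Ndufc2, Cox8c and Ndufb2. Of the 2 kb window of Cox8b, 1495 bp were under peaks in ESCs, 1481 bp in brain, 0 bp in MEFs, 2000 bp in liver, 1321 bp in shGFP and 626 bp in shSuz12. Cox6a2 had 981 bp in ESCs, 1028 bp in brain, 0 bp in MEFs, 1589 bp in liver, 1187 bp in shGFP and 731 bp in shSuz12. At Cox8b the TSS base was covered in ESCs, brain, liver and shGFP, and at Cox6a2 in ESCs, brain and liver.

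Cox4i2 had 1957 bp in ESCs, 0 bp in MEFs and brain, 325 bp in liver, 1543 bp in shGFP and 1326 bp in shSuz12, with the TSS base covered in the 3 ESC libraries. Ndufa4l2 had 1758 bp in ESCs, 1071 bp in liver, 1366 bp in shGFP and 0 bp in MEFs, brain and shSuz12. Cox8c, the testis form of subunit VIII, had 1088 bp in ESCs, 795 bp in shGFP, 796 bp in shSuz12, 869 bp in MEFs and 0 bp in liver and brain. These 3 genes had more window bp in ESCs than in brain or liver. Ndufc2 followed the same order, with 1597 bp in ESCs, 1073 bp in shGFP, 424 bp in shSuz12, 657 bp in MEFs and 0 bp in liver and brain. Cox5b encodes a subunit of complex IV that all tissues use, and its promoter is of the high-CpG class. Its window had 641 bp in ESCs, 1042 bp in brain, 679 bp in MEFs, 927 bp in liver, 639 bp in shGFP and 0 bp in shSuz12, and apart from 1 brain peak inside the gene these peaks lay upstream of the TSS. Ndufb2, an accessory subunit of complex I, was covered in the differentiated cells alone, over 908 bp in brain, 1040 bp in MEFs and 1316 bp in liver.

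The 8 tissue-restricted forms and their 7 broadly expressed paralogs differed in the TSS window in the ESC libraries. In ESCs 6 of 8 restricted forms had a peak there (Cox4i2, Cox6a2, Cox7a1, Cox8b, Cox8c and Ndufa4l2) and 0 of 7 paralogs did. The counts were 6 and 0 in shGFP, 5 and 0 in shSuz12, 5 and 3 in liver, 3 and 0 in brain, and 1 and 1 in MEFs. Over all genes the shares were 31.9% in ESCs, and 27.1, 21.4, 29.4, 20.0 and 30.1% in the other libraries in that order. The sets also differed in promoter class, since most paralogs but no restricted form had a high-CpG promoter. In ESCs 27.1% of all high-CpG genes and 34.4% of all other genes had a TSS window peak. Cox7a1, the muscle and heart form of subunit VIIa, had 304 bp in ESCs, 292 bp in brain, 279 bp in liver, 257 bp in shGFP and 0 bp in MEFs and shSuz12, and Cox7a2 had 563 bp in liver and none elsewhere. Cox8a had 427 bp in liver, and Ndufa4 had 474 bp in MEFs and 17 bp in liver. Cox6a1, Cox6b1, Cox4i1 and Cox7b had none in any library. Of the testis forms, Cox7b2 had 378 bp in shSuz12 alone and Cox6b2 had none. Over the gene span, 6 of the 7 paralogs had a peak in liver, among them Cox8a (62.1% of the span), Cox6a1 (53.4%) and Cox7a2 (34.1%), and Cox7b had none in any library. The paralogs with a span peak numbered 5 in brain, 4 in ESCs and shSuz12, 2 in shGFP and 0 in MEFs. The lists are short and the sets were chosen with earlier results known, so the counts are a description.

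**Figure D4:**
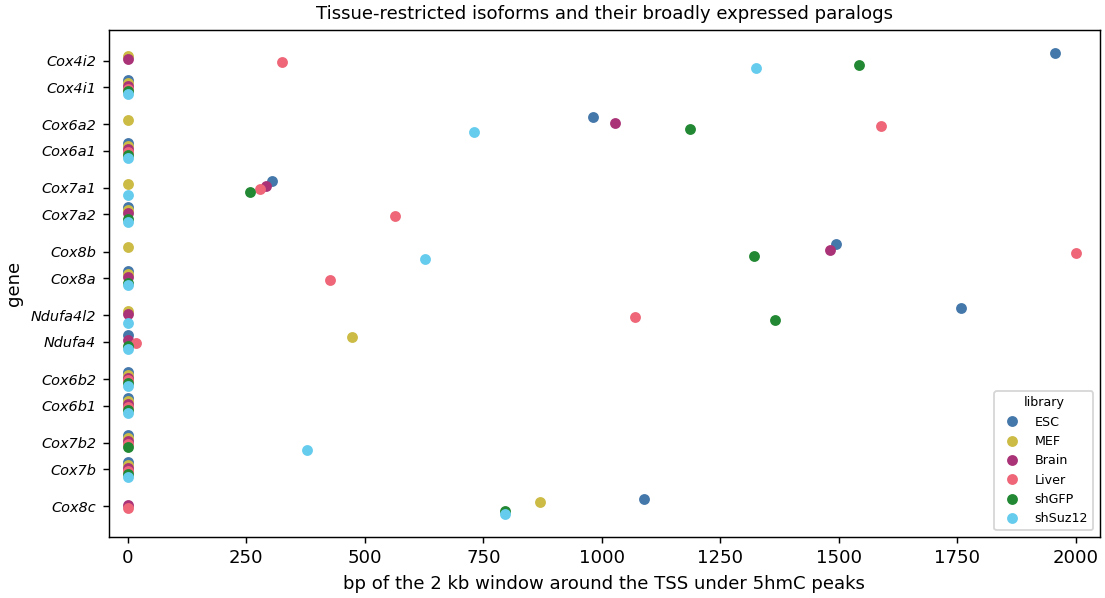
bp of the 2 kb window around the TSS under 5hmC peaks in each of the 6 libraries (colours), for 7 tissue-restricted genes each followed by its broadly expressed paralog, and for Cox8c. Cox4i2, Cox6a2, Cox8b and Ndufa4l2 reach 1957, 1589, 2000 and 1758 bp, while their paralogs stay between 0 and 474 bp.

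Upstream of the TSS, between 1 and 3 kb, the most bp summed over libraries were at Cox8b, Atp5h, Cox4nb, Atp5j and Ndufaf3. Cox8b had 2000 bp under peaks in ESCs and brain, 1374 bp in MEFs, 1865 bp in liver, 1534 bp in shGFP and 1286 bp in shSuz12. It was the region in which MEFs, bare at the TSS of Cox8b, had a peak. Atp5h, which encodes subunit d of the ATP synthase stalk, also had a peak there in all 6 libraries, over 1321 bp in ESCs, 1194 bp in brain, 968 bp in MEFs, 1406 bp in liver, 1112 bp in shGFP and 1193 bp in shSuz12. Kctd2, transcribed divergently, overlaps Atp5h or the 3 kb upstream of it. Atp5j, coupling factor 6 of ATP synthase, had peaks in MEFs (1325 bp), brain (1235 bp) and liver (1783 bp) and in none of the ESC libraries, and the assembly factor Ndufaf3 in the same 3 libraries (1062, 1325 and 1449 bp). Cox4nb had 1182 bp in ESCs, 1397 bp in brain, 0 bp in MEFs, 1243 bp in liver, 475 bp in shGFP and 216 bp in shSuz12.

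To see how 5hmC at these genes compared after the hairpin against Suz12, the shGFP and shSuz12 libraries were set side by side. The level of Suz12 in these cells was not examined here. Of the 10 members whose TSS window had a peak in shGFP, 4 lacked one in shSuz12 (40.0%, 12.2 to 73.8%), where 44.1% of all such genes had none. These were Ndufa4l2 (1366 bp to 0 bp), Cox5b (639 bp to 0 bp), Atp5s (319 bp to 0 bp) and Cox7a1 (257 bp to 0 bp). Another 4 members, Ndufa13 (487 bp), Cox7b2 (378 bp), Uqcrq (131 bp) and Sdhb (38 bp), had a peak in shSuz12 and none in shGFP, out of 82 without one, where 8.58% of all genes without a peak in shGFP had one in shSuz12. Ndufa13 is an accessory subunit of complex I, Uqcrq a small subunit of complex III, and Cox7b2 the testis form of subunit VIIb. Of the 6 with a peak in both, Cox8b went from 1321 to 626 bp, Ndufc2 from 1073 to 424 bp and Cox6a2 from 1187 to 731 bp, while Cox4i2 had 1543 and 1326 bp and Cox8c 795 and 796 bp. In total the members had 8656 bp of TSS windows covered in shGFP against 4972 bp in shSuz12, a ratio of 0.574, and all genes had a ratio of 0.540. The members' loss of covered bp was thus close to that of the whole list, in which the median peak was 776 bp wide in shGFP and 564 bp in shSuz12. With a common score of at least 80, 77.8% of the members covered there in shGFP and 78.7% of all such genes lacked a peak in shSuz12. Between the untransfected ESCs and shGFP, 4 of 13 members with a peak had none in shGFP, against 32.0% of all genes, and 1 had a peak in shGFP alone.

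**Figure D5:**
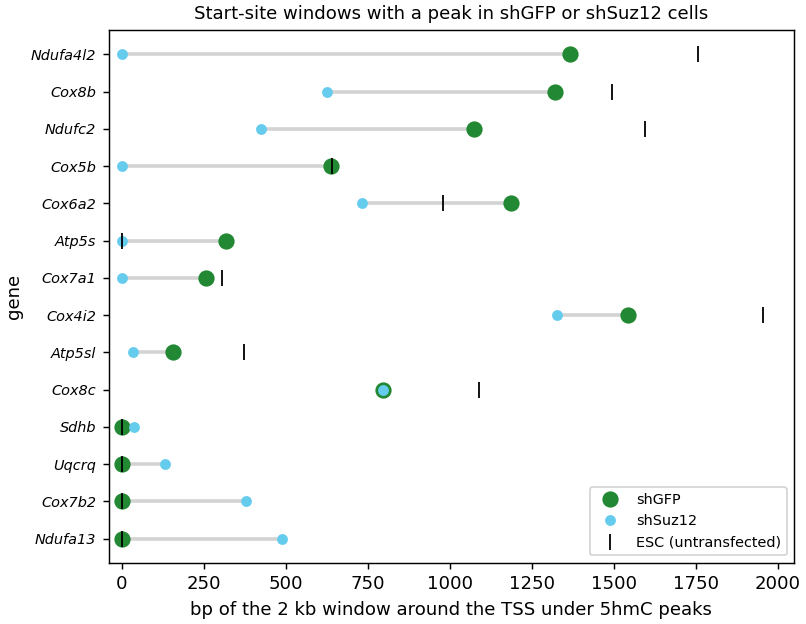
bp of the 2 kb window around the TSS under 5hmC peaks for the 14 members with a peak in shGFP (large green points) or shSuz12 (small blue points), with the untransfected ESCs as black bars. Ndufa4l2, Cox8b, Ndufc2 and Cox5b have the largest excess in shGFP, of 1366, 695, 649 and 639 bp, and Ndufa13 the largest in shSuz12, of 487 bp.

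The other windows gave other values for the same pair. From 1 to 3 kb upstream, 6 of the 13 members covered in shGFP lacked a peak in shSuz12 (46.2%, against 44.4% of all such genes). Another 10 of the 79 without one had a peak in shSuz12 alone (12.7%, against 10.7% of all such genes). Both shares were close to the background. The covered bp went from 7397 to 9852, a ratio of 1.33 where all genes had 0.683. Sdhb (834 bp), Ndufa11 (608 bp), Cox4i2 (555 bp) and Ndufab1 (571 bp) were among the members with an upstream peak in shSuz12 and none in shGFP. Over the gene span, 9 of the 46 members covered in shGFP lacked a peak in shSuz12 (19.6%, against 10.4% of all such genes), and 17 of the 46 others had one in shSuz12 alone (37.0%, against 17.0%). Among all high-CpG genes the same shares were 7.49% and 35.9%, so the second was close to that of the members. The covered bp of the span went from 149432 to 109437, a ratio of 0.732, and all genes had 0.706. Atp5o, whose span mixes several genes, went from 54752 to 33380 bp and made up much of both totals. The ratio without it was not computed. The covered share of the span was larger in shGFP in 30 members and larger in shSuz12 in 33, while over all genes it was larger in shGFP in 50.2% and in shSuz12 in 19.3%. The shSuz12 list reached down to a lower score than the shGFP list. With a common score of at least 80 the order over the span turned round, with a peak in 39.1% of the members in shGFP and in 19.6% in shSuz12, against 53.1 and 30.4% of all genes.

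Motifs known from promoters of these genes were counted as plain letters, on both strands, in the 300 bp from 250 bp upstream to 50 bp downstream of the TSS. GCATGCGC, part of the motif of NRF1, was found in 11 of 92 members (12.0%) and in 3.30% of all promoters of that length. CCGGAAG, an ETS motif of the kind bound by GABP, was in 18 members (19.6%) and in 10.8% of all. AAGATGGCG, part of the YY1 motif, was in 6 members (6.52%) and in 1.84% of all, GGGCGG, of the SP1 family, in 42 (45.7%) and in 43.4%, and TATAAA in 9 (9.78%) and in 13.4%. Matches can overlap, since CCGGAAG ends in the letters with which AAGATGGCG begins. Among all high-CpG promoters the shares were 6.46, 20.1, 3.42, 78.2 and 4.61%, in the same order. Of the 11 members with GCATGCGC, 7 had a TSS window peak in liver (63.6%), 5 in brain (45.5%), 3 in MEFs (27.3%), 2 in ESCs (18.2%), 1 in shGFP (9.09%) and 2 in shSuz12 (18.2%). Of the 81 members without it the shares were 53.1, 18.5, 27.2, 13.6, 11.1 and 9.88%, in the same order. Of the 18 with CCGGAAG, 8 had one in liver (44.4%), 5 in brain (27.8%), 2 in MEFs (11.1%), 1 in ESCs (5.56%), 0 in shGFP and 1 in shSuz12 (5.56%). Of the 74 without it the shares were 56.8, 20.3, 31.1, 16.2, 13.5 and 12.2%. Of the 30 members with a divergent neighbour, 3.33% had a TSS window peak in ESCs, 33.3% in MEFs, 13.3% in brain, 50% in liver, 3.33% in shGFP and 6.67% in shSuz12. Of the 62 without such a neighbour the shares were 19.4, 24.2, 25.8, 56.5, 14.5 and 12.9%, so MEFs had the opposite order to the other libraries.

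Other nuclear genes of the pathway, a list of 32, showed a similar order of libraries over the gene span. They were cytochrome c and c1, assembly factors of complexes II, III and IV, factors that copy and transcribe mitochondrial DNA, and regulators such as Nrf1, Gabpa, Esrra and Ppargc1a. The median share of the span under peaks was 29.5% in liver, 17.0% in ESCs, 12.8% in brain, 9.53% in shSuz12, 8.29% in shGFP and 6.46% in MEFs, where all genes had the medians of 4.44, 8.77, 6.43, 3.05, 4.17 and 4.43% given above. A peak in the TSS window was found in 12 of 32 in liver (37.5%, against 29.4% of all genes), 11 in MEFs (34.4%, against 30.1%), 6 in brain (18.8%, against 20.0%), 4 in ESCs (12.5%, against 31.9%), 3 in shGFP (9.38%, against 27.1%) and 4 in shSuz12 (12.5%, against 21.4%). Sco2, a copper chaperone for complex IV, had the TSS window covered over 1620 bp in ESCs and liver, 1498 bp in brain, 870 bp in MEFs, 1317 bp in shGFP and 609 bp in shSuz12. Cyct, the testis form of cytochrome c, had 1258 bp in ESCs, 1186 bp in shGFP, 813 bp in shSuz12 and no peak there in MEFs, brain and liver.

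The 4 members on chromosome 8 were Cox4i1, Cox4nb, Ndufa13 and Ndufb7. In the ESC library 53.5% of all genes of that chromosome had a TSS window peak, against 30.8% of genes elsewhere, and in shGFP 43.7 against 26.3%. None of the 4 members had a TSS window peak in ESCs or shGFP, and all 4 had a peak over the span in ESCs, brain, liver, shGFP and shSuz12, as did 83.5, 69.7, 69.1, 79.4 and 78.4% of all genes of that chromosome. Ndufa13 had 27.2% of its span under peaks in ESCs, 4.70% in MEFs, 11.2% in brain, 51.2% in liver, 15.2% in shGFP and 23.8% in shSuz12. Ndufb7 had 61.8, 0, 17.6, 74.2, 20.0 and 20.6%, in the same order.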

How the data were processed

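The peaks of 6 GLIB-Seq libraries were used. After CASAVA 1.8, the authors aligned each library to mm9 with Bowtie 0.12.7, used uniquely placed reads only, removed duplicates and called peaks with MACS 1.4.1, tools and versions also named in the submitters' processing notes. The peak threshold and control are not given in the sources used here. The deposited value of each peak is its MACS score, taken as 10 times the negative log10 of the p-value. RNA-Seq of the shGFP and shSuz12 cells was not analysed here.

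Overlaps of at least 1 bp were counted with the gene span, the TSS ± 1 kb (from the first base of the gene record) and 1 to 3 kb upstream, and covered bp were summed, for all 22367 protein-coding records of the GENCODE annotation (mouse release M1) on the nuclear chromosomes. Sequences were read from NCBIM37. The members, the gene lists and the tests were chosen with earlier results of these data known. Shares have exact (Clopper-Pearson) 95% intervals, and with 1 library a condition no test was run.

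Genes were named by rule. These were the members with the TSS base under a peak, the 8 with the most TSS window bp, the 8 with the largest difference there between shGFP and shSuz12, the 5 with the highest and the 5 with the lowest mean share of the span, and the 5 largest differences between brain and liver in each direction. Members with a peak in all or in no library, the 5 with the most upstream bp, tissue-restricted forms with their paralogs and members on chromosome 8 were also named, with a few examples from groups of over 10. Atp5o, Ndufs3, Sdhb, Uqcrq, Ndufa11, Ndufab1, Sco2 and Cyct were singled out at some places after their values were seen.

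The alternatives were the top-scoring 50% of every list, lists of the same length, a common score of at least 80, at least 100 bp covered, peak midpoints, TSS windows of 500 bp or 2 kb on each side, the start of any protein-coding transcript, 1 to 5 kb upstream, the span without its first 1 kb, structural subunits only, and the members without those that overlap other genes or lie on chromosome 8. Leaving out Cox4nb, Atp5l-ps1, Atp5o and the second Ndufb8 record was an alternative chosen after seeing the data. Python 3.11.15 was used with scipy 1.17.1, pandas 2.3.3, numpy 2.4.6 and pysam 0.24.0, and the overlap steps were tested on simulated peaks. For 1 record, values of its own are not reported here.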

Additional observations from a re-analysis of the deposited data

Results flagged for a closer look

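The mitochondrial genome, which encodes the remaining subunits of the respiratory chain and was outside the comparisons of nuclear genes, carried peaks in all 6 libraries. It was noticed because the lists hold signal there that no comparison used. Peaks covered 6588 bp of it in liver, 6557 bp in brain, 6575 bp in MEFs and 6547 bp in ESCs, in each case as 1 peak with a score of 3100 over mt-Nd1, mt-Nd2 and mt-Co1. In shGFP 3 peaks covered 11162 bp and in shSuz12 3 peaks covered 11759 bp, and 1 of the 3 in each of these libraries lay over mt-Nd4, mt-Nd5, mt-Nd6 and mt-Cytb. No library without the pull-down was used here, so a background level for these peaks is not known.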

How the results depend on the processing

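The lists give peaks without read counts or replicates, so depth cannot be assessed and a missing peak shows only that none was listed. No paired analysis was possible because no condition has a second library. An alternative value counts as moved where it left the 95% interval of the reported share or, for medians, the binomial interval of the median, and 68 of 384 did. Liver stayed above all genes in every setting run for its TSS window, upstream window and span shares, and ESCs, MEFs, shGFP and shSuz12 stayed below all genes in every setting for the TSS window. Brain did not keep its side, being above all genes in 6 of 12 settings for the TSS window, 3 of 10 for the upstream window and 8 of 10 for the span, the reported setting included. ESCs were above in 1 of 10 upstream and 1 of 10 over the span, and shSuz12 in 1 of 10 upstream. Leaving out Cox4nb, Atp5l-ps1, Atp5o and the second Ndufb8 record moved none of the shares or medians. Where other settings moved a value, the cause was not tested.

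With peak midpoints, the TSS window share was 27.2% in liver, 6.52% in brain, 17.4% in MEFs and 7.61% in ESCs, and the upstream share 14.1% in MEFs, 9.78% in brain, 31.5% in liver and 7.61% in shGFP. With a TSS window of 500 bp to either side it was 25.0% in liver, 7.61% in brain and ESCs and 13.0% in MEFs. With 2 kb to either side it was 41.3% in ESCs and MEFs, 40.2% in brain, 76.1% in liver, 20.7% in shGFP and 25.0% in shSuz12. From 1 to 5 kb upstream the share was 48.9% in ESCs, 30.4% in brain and shGFP and 38.0% in shSuz12.

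With the 50% of peaks of the highest scores, the TSS window share was 8.70% in MEFs and 29.3% in liver. The upstream share was then 12.0% in ESCs, 9.78% in MEFs, 23.9% in liver and 7.61% in shGFP and shSuz12, and the span share 46.7% in ESCs, 25.0% in MEFs, 45.7% in brain, 73.9% in liver, 33.7% in shGFP and 32.6% in shSuz12. The median share of the span was 0% in ESCs and brain and 21.7% in liver, and the TSS base lay under a peak in 2.17% of members in liver. With equal numbers of peaks the MEF shares were 10.9% (TSS window), 9.78% (upstream) and 31.5% (span).

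With a score of at least 80, the TSS window share was 5.43% in MEFs and brain and 2.17% in shSuz12. The upstream share was 8.70% in MEFs, 6.52% in brain and 2.17% in shSuz12, and the span share 13.0% in MEFs, 25.0% in brain, 39.1% in shGFP and 19.6% in shSuz12. The median share of the span in brain was 0%, and 77.8% of members with a TSS window peak in shGFP had none in shSuz12. Without the members that overlap another gene, 42 remained, the upstream share was 14.3% in MEFs, 38.1% in liver and 4.76% in shGFP, and the TSS base lay under a peak in 2.38% of members in liver.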
